A study of Mus musculus with 4 samples.

Results

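The genes described here are the 10 that encode the core of antigen presentation by MHC class I and CD1d in the deposited count table of sorted mouse thymic invariant natural killer T (iNKT) cells. They are 2 class I heavy chains (H2-K1 and H2-D1), their shared light chain B2m, the lipid-presenting chain Cd1d1, the peptide transporter and its partner (Tap1, Tap2 and Tapbp), the class I transactivator Nlrc5, and 2 immunoproteasome subunits (Psmb8 and Psmb9). They were chosen by name; all 10 were found among the 53715 genes of the table, and all 10 had enough counts to be tested. The libraries compare mice whose floxed Mettl3 gene was deleted by a Cre recombinase under the Cd4 promoter (Mettl3fl/flCD4-cre, here Mettl3 knockout, 2 libraries) with WT mice (2 libraries). Both genotypes were C57BL/6 by the labels, aged 6 to 8 weeks, and no treatment is listed for either. Cd4-driven Cre acts from the CD4+CD8+ thymocyte stage onward, so by design the deletion is aimed at T-lineage cells and precedes iNKT maturation. Where and how fully the gene was deleted was not tested here. Whether WT mice carried Cre or floxed alleles is not given in the labels. The cells were live, bound a CD1d tetramer and stained for TCRβ, and RNA was read as bulk Smart-seq2 libraries. Total counts were 25402792 and 24374587 in the Mettl3 knockout libraries, and 28316016 and 25931610 in the WT libraries. The labels do not tie a library to an animal, so p-values measure the spread between libraries, which may be technical.

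Nearly all cells display peptides on MHC class I. The proteasome cuts cytosolic proteins, with PSMB8, PSMB9 and PSMB10 replacing the constitutive catalytic subunits in immune cells; TAP1 and TAP2 pump the peptides into the endoplasmic reticulum, tapasin (Tapbp) holds an empty class I molecule at the transporter, and B2m binds the heavy chain so that the complex can reach the surface. NLRC5 drives transcription of many of these genes in lymphocytes. CD1d is a class I-like chain that also needs B2m but presents lipids, and it is CD1d on CD4+CD8+ thymocytes that selects iNKT cells, whose receptor sees CD1d. METTL3 is the catalytic subunit of the enzyme that places m6A on mRNA.

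Promoters are shown for H2-K1, H2-D1 and B2m because these 3 genes are classically controlled together, while B2m alone of the 10 passed the test below. The sequences are from RefSeq (GRCm38.p6, 250 bases before to 50 after the annotated start), of which 7 of the 10 members had at least 1 entry; Cd1d1, Tap2 and Nlrc5 had none. H2-K1 has 2 annotated starts, and the promoter of the one farther downstream is printed. H2-K1 lies on the minus strand at chr17:34000284-34000583, H2-D1 on the plus strand at chr17:35262844-35263143, and B2m on the plus strand at chr2:122147437-122147736. Capitals mark exact matches, in either orientation, to the motifs described below.
H2-K1: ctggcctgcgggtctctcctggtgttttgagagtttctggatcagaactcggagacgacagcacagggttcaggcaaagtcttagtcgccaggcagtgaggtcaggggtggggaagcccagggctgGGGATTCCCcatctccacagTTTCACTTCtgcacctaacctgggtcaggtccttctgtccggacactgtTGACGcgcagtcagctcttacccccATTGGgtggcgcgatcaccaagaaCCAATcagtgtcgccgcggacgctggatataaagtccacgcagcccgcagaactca
H2-D1: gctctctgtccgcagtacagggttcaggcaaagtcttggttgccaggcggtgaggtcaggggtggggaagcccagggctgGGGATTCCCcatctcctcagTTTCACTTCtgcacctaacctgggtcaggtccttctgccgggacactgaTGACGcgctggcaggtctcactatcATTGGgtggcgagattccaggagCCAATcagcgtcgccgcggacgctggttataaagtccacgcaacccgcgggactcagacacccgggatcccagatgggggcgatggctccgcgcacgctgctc
B2m: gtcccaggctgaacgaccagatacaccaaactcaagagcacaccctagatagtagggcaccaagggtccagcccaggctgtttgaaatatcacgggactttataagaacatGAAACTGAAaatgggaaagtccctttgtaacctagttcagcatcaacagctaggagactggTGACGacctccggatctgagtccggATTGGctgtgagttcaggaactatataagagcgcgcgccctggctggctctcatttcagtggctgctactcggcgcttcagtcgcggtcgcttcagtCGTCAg

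The motifs were searched on both strands. GGGATTCCC, a site type bound by NF-κB, was present in both heavy chain promoters and in 0.353% of all 32851 promoters of the table. No other κB spelling was searched, so the lack of a match in B2m does not show that it lacks a κB site. The interferon-stimulated response element (ISRE) was searched as GAAANNGAA, held by B2m and by 8.56% of all promoters, and as GAANNGAAA, held by H2-K1 and H2-D1 and by 7.52% of all promoters; both spellings can match the same longer element, and the second was added after the promoters had been seen. TGACG, the core of the X2 element to which CREB-type factors bind, was in all 3 promoters and in 20.8% of all promoters. Its full palindrome TGACGTCA, which contains TGACG, was in none of the members' promoters and in 1.79% of all. CCAAT, the NF-Y site, was in all 3 and in 37.4% of all promoters. From the first base of one match to that of the next, the κB match, the ISRE, the X2 core and the first CCAAT were spaced by 20, 49 and 25 bases in H2-K1 and by the same 20, 49 and 25 bases in H2-D1. In B2m the ISRE and the X2 core were 61 bases apart, and the X2 core and CCAAT again 25; a further TGACG follows its start. A match describes letters and was not read as binding.

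**Figure D1:**
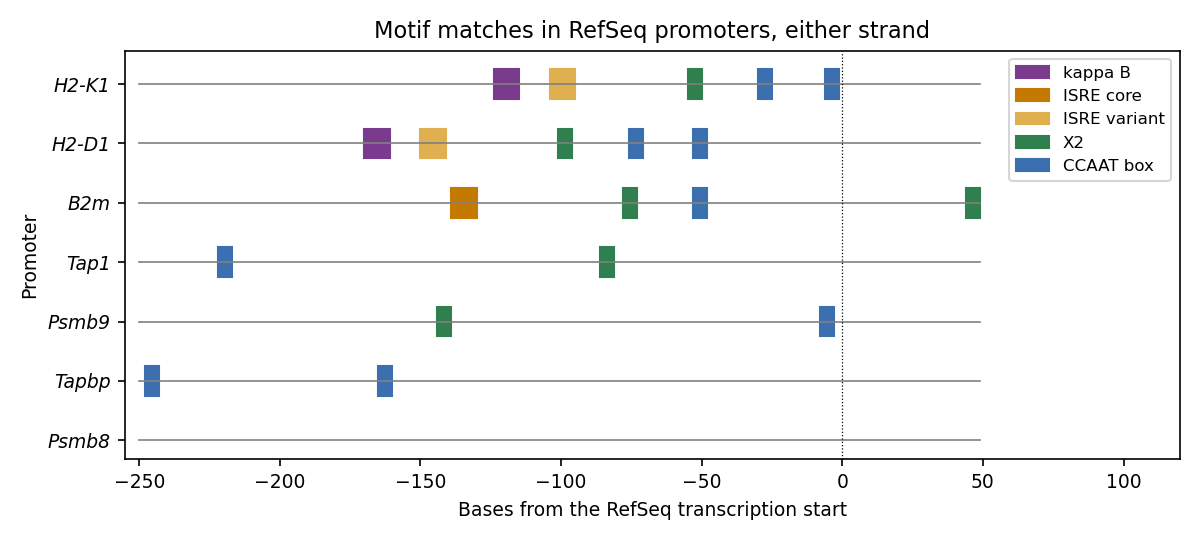
Exact motif matches in the RefSeq promoters of 7 members, by distance in bases from the transcription start (dotted line). H2-K1 and H2-D1 hold the same ordered matches, equally spaced as far as the first CCAAT. B2m has an ISRE, an X2 core and a CCAAT but no match to GGGATTCCC, the only κB spelling searched. The Psmb8 window holds no match to any motif searched.

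Tap1 and Psmb9 are read from opposite strands of one short region. Their RefSeq starts lie 226 bases apart, 275 bases belong to both promoter windows, and so each X2 core and CCAAT match in one window is also a match in the other. The window is shown because the 2 members share it. The Tap1 window is chr17:34187306-34187605 on the plus strand of GRCm38.p6, and capitals mark its CCAAT and TGACG matches in either orientation.
Tap1: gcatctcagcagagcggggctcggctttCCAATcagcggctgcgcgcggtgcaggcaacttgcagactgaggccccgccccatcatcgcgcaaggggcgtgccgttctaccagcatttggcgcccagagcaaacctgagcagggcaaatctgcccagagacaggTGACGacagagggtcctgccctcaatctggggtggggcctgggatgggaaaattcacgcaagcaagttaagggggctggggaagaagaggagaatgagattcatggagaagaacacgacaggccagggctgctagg

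Few presentation genes were called in Mettl3 knockout iNKT cells. B2m fell by 0.48 on the log2 scale, the only member to pass the test (edgeR quasi-likelihood, Benjamini-Hochberg adjusted p = 0.0484), and 0 members rose (1 with DESeq2, Tap2). That is 1 of 10, where 2.59% of all 14185 tested genes were called, 1.09% higher and 1.51% lower. At an unadjusted edgeR p under 0.05 the count was 2 of 10, B2m and Tap2, against 20.2% of all tested genes (10.5% higher, 9.69% lower), a share near the background. The median log2 fold change of the 10 was -0.16, against 0.0163 over all tested genes, with 6 members below 0 and 4 above. Summed over the 10 genes, the level was 6882 and 6758 CPM (counts scaled to equal library size by TMM, which matches library composition) in the Mettl3 knockout libraries, and 6707 and 7674 CPM in WT libraries. WT replicate 2 was the highest of the 4 and WT replicate 1 the lowest, so the genotypes overlapped.

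**Figure D2:**
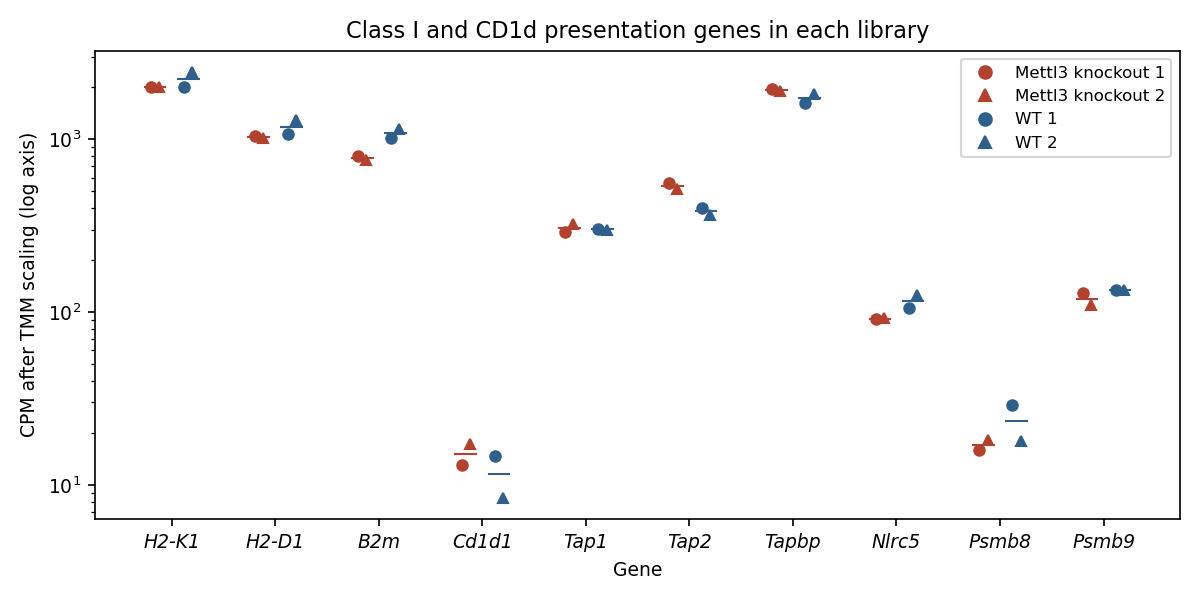
CPM of the 10 genes on a log axis, with circles for replicate 1, triangles for replicate 2 and a bar at the mean of each genotype. B2m is lower and Tap2 higher in both Mettl3 knockout libraries than in both WT libraries, while Cd1d1, Tap1 and Psmb8 overlap.

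Levels between genes were compared as CPM per kilobase of merged exons. The most abundant member was B2m, at a mean of 904 ± 32.7 per kilobase in Mettl3 knockout libraries and 1260 ± 116 in WT libraries (SD, n = 2 each). H2-K1 followed at 682 ± 2.86 and 761 ± 104, Tapbp at 531 ± 9.11 and 475 ± 40.7, and H2-D1 at 398 ± 8.07 and 457 ± 61.2. In WT libraries the Tapbp and H2-D1 levels overlapped and do not differ beyond their spread; in the Mettl3 knockout libraries they were apart. These 4 genes exceeded at least 99.6% of tested genes in WT. Tap2 came next at 141 ± 7.88 per kilobase in Mettl3 knockout and 101 ± 6.60 in WT, then Tap1 at 55.9 ± 4.23 and 55.0 ± 0.782, Psmb9 at 32.7 ± 3.72 and 36.8 ± 0.0341, and Nlrc5 at 10.8 ± 0.157 and 13.6 ± 1.68. Psmb8 at 5.04 ± 0.477 and 6.95 ± 2.35, and Cd1d1 at 5.89 ± 1.12 and 4.49 ± 1.70, were the lowest and overlapped in both genotypes. Merged exons count retained introns, which lengthen some genes; per kilobase of the longest coding transcript, an alternative added after seeing the data, H2-K1 stood above B2m (1238 against 904 in Mettl3 knockout, 1381 against 1260 in WT) and Psmb8 above Cd1d1 in both genotypes, and the other 6 kept their places.

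The light chain B2m (ENSMUSG00000060802.8; GRCm38 chromosome 2, 122147686 to 122153083, plus strand, protein coding), without which neither class I nor CD1d is stable at the surface, was at 798 and 758 CPM in Mettl3 knockout libraries, and at 1013 and 1154 CPM in WT libraries. Both Mettl3 knockout libraries lay below both WT libraries. The log2 fold change was -0.48 (SE 0.09, 95% interval from -0.70 to -0.26), or 1.39-fold lower. The call was borderline: it was lost in 8 of 12 alternatives and kept with DESeq2 (adjusted p = 0.000262), limma voom (0.0482), the filter at 5 CPM or more in 2 libraries (0.0192) and without WT replicate 1 (0.0205). Without WT replicate 2 the log2 fold change was -0.38 (edgeR adjusted p = 0.0948), and with either Mettl3 knockout library left out it was -0.52 and -0.44 (0.168 and 0.233). B2m is a short gene, with 860 bases of merged exon, and the 1090 tested genes under 1 kb had a median log2 fold change of -0.08, against 0.06 for the 2095 genes over 8 kb. With each library's trend of counts with length removed, an alternative chosen after seeing the data, B2m was at -0.31 (edgeR adjusted p = 0.242). After that removal the genes under 1 kb had a median of 0.08 and those over 8 kb a median of -0.0038. The removal thus moved the median of short genes past 0, and -0.31 is not a value free of length effects.

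The heavy chains, which hold the peptide groove, showed no called difference. H2-K1 (ENSMUSG00000061232.15, chromosome 17) was at 1999 and 2011 CPM in Mettl3 knockout libraries, and at 2019 and 2451 CPM in WT libraries. The groups did not overlap, but WT replicate 1 lay close to the Mettl3 knockout libraries and WT replicate 2 stood above the rest. Its log2 fold change was -0.16 (SE 0.10, 95% interval from -0.39 to 0.07; edgeR adjusted p = 0.431), and without WT replicate 2 it was -0.01. H2-D1 (ENSMUSG00000073411.11; GRCm38 chromosome 17, 35262730 to 35267499, plus strand) followed the same order, at 1041 and 1011 CPM in Mettl3 knockout, and 1066 and 1289 CPM in WT. Its log2 fold change was -0.20 (SE 0.10, interval from -0.44 to 0.05; edgeR adjusted p = 0.341), and -0.05 without WT replicate 2. Class I genes resemble each other: 8.79% of the 50-base windows of the H2-K1 transcript and 14.3% of those of H2-D1 also occurred in transcripts of other genes, such as H2-Q7, so reads can be split or lost between them and the levels are uncertain.

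Cd1d1 (ENSMUSG00000028076.12; GRCm38 chromosome 3, 86995834 to 86999441, minus strand), the chain that presents lipids to iNKT cells, was present at a low level, at 13.1 and 17.2 CPM in Mettl3 knockout libraries, and at 14.6 and 8.44 CPM in WT libraries. The groups overlapped, with WT replicate 1 between the Mettl3 knockout libraries and WT replicate 2 lowest. The log2 fold change was 0.37 (SE 0.37, 95% interval from -0.50 to 1.24; edgeR adjusted p = 0.639), and ran from 0.05 without WT replicate 2 to 0.83 without WT replicate 1. Its paralog Cd1d2 was at 5.09 and 2.85 CPM in Mettl3 knockout, and at 0.605 and 3.22 CPM in WT (edgeR adjusted p = 0.482). Of the 50-base windows of the Cd1d1 transcript, 25.8% also occurred in Cd1d2, so reads from the 2 genes are partly interchangeable. Cd1d1 is abundant on CD4+CD8+ thymocytes and on antigen-presenting cells, whose markers are given below.

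The transporter subunits TAP1 and TAP2 work as a pair, and neither gene was called. Tap2 (ENSMUSG00000024339.12; GRCm38 chromosome 17, 34203527 to 34216321, plus strand) was at 555 and 513 CPM in Mettl3 knockout libraries, and at 401 and 365 CPM in WT libraries, with no overlap. The log2 fold change was 0.48 (SE 0.10, 95% interval from 0.24 to 0.72), which missed the threshold (edgeR adjusted p = 0.0565). It passed in 3 of 12 alternatives: DESeq2 (adjusted p = 0.000311), the filter at 5 CPM (0.0246) and total-count scaling (0.0431), and its value ran from 0.42 to 0.54 over all 12. Tap1 (ENSMUSG00000037321.17; GRCm38 chromosome 17, 34187553 to 34197225, plus strand) was at 289.6 and 322 CPM in Mettl3 knockout, and at 304 and 298 CPM in WT, so the groups overlapped. Its log2 fold change was 0.02 (SE 0.11, interval from -0.23 to 0.27; edgeR adjusted p = 0.942). Tapasin, Tapbp (ENSMUSG00000024308.14, chromosome 17), was at 1951 and 1905 CPM in Mettl3 knockout, and at 1620.1 and 1829 CPM in WT; the groups did not overlap, and the log2 fold change of 0.16 (SE 0.08, interval from -0.03 to 0.35) did not pass (edgeR adjusted p = 0.327). The protocol does not mark strand, and exons of Tap1, Tap2, Tapbp, Psmb8 and Psmb9 share 212, 698, 1053, 498 and 212 bases with neighbouring or antisense genes, so reads there cannot be assigned with certainty.

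Nlrc5 (ENSMUSG00000074151.13; GRCm38 chromosome 8, 94434356 to 94527272, plus strand), the transactivator, was at 90.6 and 92.5 CPM in Mettl3 knockout libraries, and at 105 and 126 CPM in WT libraries. Both Mettl3 knockout libraries were below both WT libraries, the WT pair being wider apart. The log2 fold change was -0.33 (SE 0.15, 95% interval from -0.69 to 0.02; edgeR adjusted p = 0.273) and stayed between -0.47 and -0.20 in 12 alternatives without passing in any.

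The immunoproteasome subunits did not pass either. Psmb9 (ENSMUSG00000096727.2, chromosome 17), the β1i subunit that replaces PSMB6, was at 129 and 110.1 CPM in Mettl3 knockout libraries, and at 134.8 and 134.7 CPM in WT libraries, with a log2 fold change of -0.17 (SE 0.14, 95% interval from -0.50 to 0.16; edgeR adjusted p = 0.562). Psmb8 (ENSMUSG00000024338.14, chromosome 17), the β5i subunit that replaces PSMB5, was at 15.9 and 18.2 CPM in Mettl3 knockout, and at 29.1 and 17.9 CPM in WT. WT replicate 1 alone was high and the groups overlapped; the log2 fold change was -0.48 (SE 0.32, interval from -1.23 to 0.27; edgeR adjusted p = 0.462), and without WT replicate 1 it was -0.08. In all, 7 of the 10 members had no overlap between the genotypes, 5 lower and 2 higher in the knockout, where 50.3% of all tested genes had none.

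**Figure D3:**
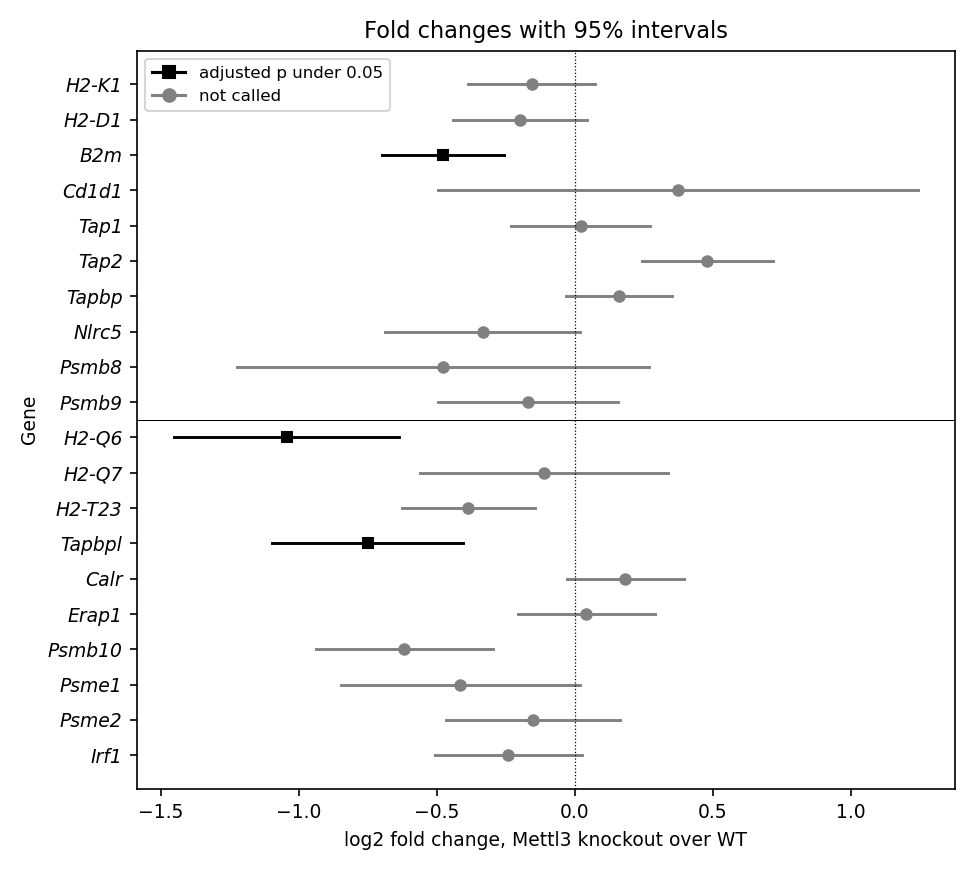
Log2 fold changes (Mettl3 knockout over WT) with 95% intervals from the edgeR fit for the 10 members, above the line, and for 10 further genes of the pathway, below it. Black squares passed at an adjusted p under 0.05; among the members this was B2m alone, and the interval of Tap2 lies wholly above 0 although it missed the adjusted threshold.

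Ratios between partner genes do not depend on library size, and these were taken per kilobase of merged exons. The H2-K1 to B2m ratio was 0.733 and 0.777 in the Mettl3 knockout libraries, and 0.584 and 0.622 in the WT libraries. The H2-D1 to B2m ratio was 0.435 and 0.445 in Mettl3 knockout, and 0.351 and 0.372 in WT. Heavy chain message was thus higher relative to B2m in both knockout libraries. The Tap1 to Tap2 ratio was 0.360 and 0.434 in Mettl3 knockout, and 0.525 and 0.564 in WT. Relative to the constitutive subunits, Psmb10/Psmb7 was 1.67 and 1.62 in Mettl3 knockout and 2.0 and 2.29 in WT, Psmb9/Psmb6 was 3.14 and 3.13 against 2.24 and 3.04, and Psmb8/Psmb5 was 0.608 and 0.860 against 0.587 and 0.373. None of these ratios overlapped between genotypes; an exact two-sided permutation test over 4 libraries gave p = 0.333 for each, the smallest it can give, so this test could not have called a ratio whatever its size. Of the windows of the Psmb5 transcript 57.1% also occurred in other genes, a pseudogene among them, so its ratio is uncertain. The level of each ratio depends on the length used, while the difference between genotypes does not. Per kilobase of the longest coding transcript, H2-K1/B2m was 1.33 and 1.41 in Mettl3 knockout and 1.06 and 1.13 in WT. Psmb10/Psmb7 was then 0.737 and 0.713 against 0.881 and 1.01, and Psmb8/Psmb5 1.26 and 1.79 against 1.22 and 0.775. Which partner is the more abundant was thus not settled for these pairs.

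**Figure D4:**
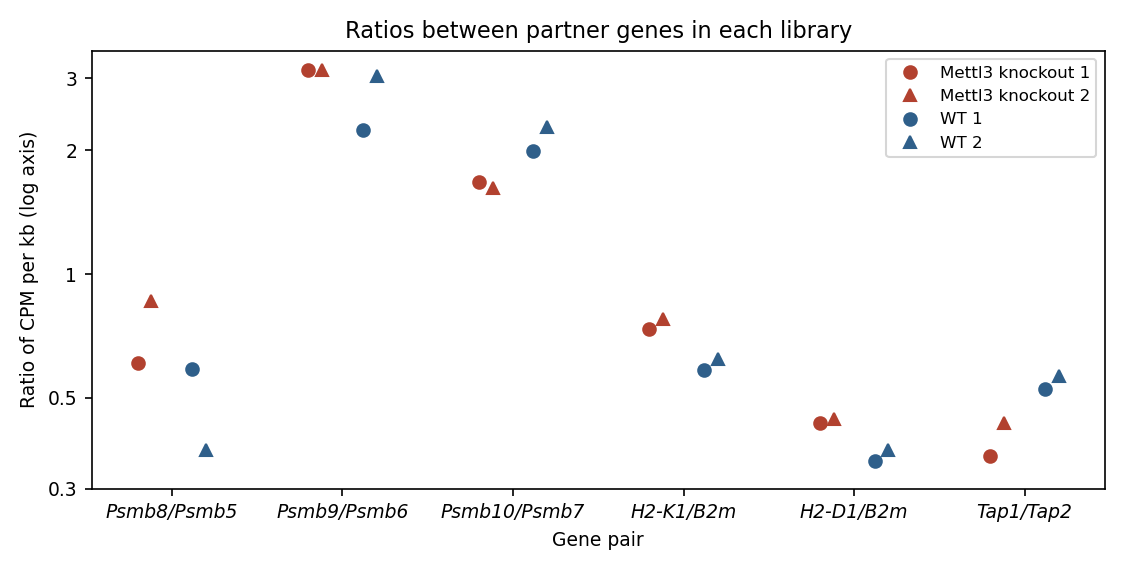
Ratios of CPM per kilobase of merged exons between partner genes in each library, on a log axis. H2-K1/B2m and H2-D1/B2m are higher, and Psmb10/Psmb7 and Tap1/Tap2 lower, in both Mettl3 knockout libraries than in both WT libraries.

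In the rest of the pathway few genes were called. For scale, edgeR called 1.09% of all tested genes higher and 1.51% lower. At an unadjusted edgeR p under 0.05 the shares were 10.5% higher and 9.69% lower. Of 16 tested class I-fold chains outside the 10, 3 were higher and 3 lower at that unadjusted threshold. By adjusted p, 1 of the 16 rose and 1 fell (2 and 3 with DESeq2), and the median log2 fold change was -0.10. The gene that fell was the nonclassical chain H2-Q6, at 153 and 156 CPM in Mettl3 knockout libraries, and 264 and 374 CPM in WT libraries (log2 fold change -1.04, SE 0.17, edgeR adjusted p = 0.0313). Both Mettl3 knockout libraries were close together and below both WT libraries. H2-Q6 passed in 7 of 12 alternatives, but not with the length trend removed or the replicate block. It also did not pass without WT replicate 2 (-0.77) or without either Mettl3 knockout library. Its neighbour H2-Q7, which shares much of its sequence (35.0% of H2-Q6 windows occurred in other genes, H2-Q7 first), was at 432 and 395 CPM in Mettl3 knockout, and 350.2 and 544 CPM in WT (edgeR adjusted p = 0.808). H2-T23, which encodes Qa-1 and presents leader peptides to NKG2 receptors, was at 313 and 286 CPM in Mettl3 knockout, and 386 and 397 CPM in WT (log2 fold change -0.39, SE 0.10, edgeR adjusted p = 0.101), and passed in 1 of 12 alternatives, DESeq2 (adjusted p = 0.0105). The chain that rose was Fcgrt, the neonatal Fc receptor, which carries IgG and albumin and presents no peptide, at 18.3 and 25.9 CPM in Mettl3 knockout, and 2.42 and 6.41 CPM in WT (log2 fold change 2.35, SE 0.46, edgeR adjusted p = 0.0482). Fcgrt passed in 4 of 12 alternatives, but not with any single library left out (adjusted p from 0.0809 to 0.187), and its value reached 3.19 without WT replicate 2, against 1.77 without WT replicate 1. Hfe, the iron-regulating class I-like chain, was at 9.68 and 4.09 CPM in Mettl3 knockout, and 1.03 and 0 CPM in WT (edgeR adjusted p = 0.0978).

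Against the 1.09% of all tested genes called higher and 1.51% called lower by edgeR, 12 genes of peptide loading and trimming were read. Of these 12, 0 rose (1 with DESeq2) and 1 fell, with a median log2 fold change of 0.06. It was Tapbpl, the tapasin-related peptide editor TAPBPR, at 72.4 and 82.0 CPM in Mettl3 knockout libraries, and 124 and 136 CPM in WT libraries (log2 fold change -0.75, SE 0.15, edgeR adjusted p = 0.0487), with no overlap between genotypes. Tapbpl passed in 2 of 12 alternatives, DESeq2 (adjusted p = 0.000373) and the filter at 5 CPM (0.0237). The call was lost with RLE or total-count scaling, no filter, limma voom, the length trend removed and any single library left out, among others (adjusted p from 0.0518 to 0.229). The chaperone Calr was at 936 and 924 CPM in Mettl3 knockout, and 769 and 869.5 CPM in WT (edgeR adjusted p = 0.314), and the trimming peptidase Erap1 was at 0.04 on the log2 scale (SE 0.11; edgeR adjusted p = 0.879). Hspa5, a general chaperone of the endoplasmic reticulum, had 0.33 (SE 0.09; edgeR adjusted p = 0.114), and Sec61a1, the protein translocation channel, 0.23 (SE 0.11; 0.278).

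No further proteasome gene was called by edgeR, with 0 higher and 4 of 18 lower at an unadjusted p under 0.05. Over all tested genes the shares at that threshold were 10.5% higher and 9.69% lower. DESeq2 called 1 lower, Psmb10. Psmb10, the third inducible catalytic subunit, was at 85.0 and 80.1 CPM in Mettl3 knockout libraries, and at 126.0 and 127 CPM in WT libraries, with no overlap and a log2 fold change of -0.62 (SE 0.14, 95% interval from -0.94 to -0.30; edgeR adjusted p = 0.0635). It passed with DESeq2 (adjusted p = 0.00198) and at 5 CPM or more in 2 libraries (0.0367). The activator subunits Psme1 and Psme2 had log2 fold changes of -0.41 (SE 0.18) and -0.15 (SE 0.13), and the assembly factor Pomp -0.24 (SE 0.16), with edgeR adjusted p of 0.266, 0.592 and 0.460. The constitutive subunits Psmb5, Psmb6 and Psmb7 had -1.04, -0.46 and -0.24 (edgeR adjusted p = 0.168, 0.404 and 0.389). Of the other 11 core subunits 9 were below 0 and 2 above, with a median of -0.29, where 48.7% of all tested genes were below 0. The members with the smallest p were Psma2 (-0.47), Psmb3 (-0.46), Psma5 (-0.36) and Psmb1 (-0.67), with edgeR adjusted p from 0.172 to 0.272.

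Few regulators and interferon-γ targets were called by edgeR. Over all tested genes 1.09% were called higher and 1.51% lower, and 20.2% had an unadjusted edgeR p under 0.05. Of 14 genes of the class I enhancer complex and its inducers, 0 rose and 0 fell, with 3 at an unadjusted edgeR p under 0.05, and with DESeq2 the counts were 1 higher and 0 lower. Irf1, an interferon-induced activator of class I genes, was at 335 and 334 CPM in Mettl3 knockout, and 362 and 428 CPM in WT (log2 fold change -0.24, SE 0.11, edgeR adjusted p = 0.292). Rfx5, the DNA-binding subunit at the X box, was at 36.1 and 25.5 CPM in Mettl3 knockout, and 23.6 and 47.9 CPM in WT (edgeR adjusted p = 0.821). Ciita, the class II counterpart of Nlrc5, was at 8.43 and 8.18 CPM in Mettl3 knockout, and 1.92 and 1.47 CPM in WT (log2 fold change 2.28, SE 0.52, edgeR adjusted p = 0.0693). Creb1 and Nfya had -0.44 (SE 0.15) and 1.01 (SE 0.35), with edgeR adjusted p of 0.158 and 0.169. Of 16 tested interferon-γ targets, 0 rose (1 with DESeq2) and 1 fell (4 with DESeq2), with a median of -0.21. At an unadjusted edgeR p under 0.05, 2 of the 16 were higher and 4 lower. The shares of all tested genes at that threshold were 10.5% higher and 9.69% lower. The guanylate-binding protein gene Gbp3 fell by 1.42 on the log2 scale, to 27.4 and 24.8 CPM in Mettl3 knockout, against 56.9 and 83.3 CPM in WT (SE 0.25, edgeR adjusted p = 0.0366). Gbp3 passed in 7 of 12 alternatives, but not with limma voom or the replicate block. It also did not pass without WT replicate 2 (-1.12) or without either Mettl3 knockout library. Gbp9, Gbp7 and Iigp1, GTPases of the same response, had -0.61, -0.47 and 1.21 (edgeR adjusted p = 0.0630, 0.0659 and 0.0806). Of 15 genes of lipid loading and CD1d trafficking 0 were called, and DESeq2 called 1 higher and 0 lower. An unadjusted edgeR p under 0.05 was found for 3 of the 15, a share near that of all tested genes. Ctsl, the cathepsin needed for CD1d presentation by mouse thymocytes, had 0.97 (SE 0.26; edgeR adjusted p = 0.101), Lamp1 0.34, Ap2m1 -0.32 and Ap3b1 -0.24 (edgeR adjusted p = 0.240, 0.183 and 0.349).

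The cells carried T cell transcripts at high level in every library. The 10 iNKT and T cell markers summed to 7988 and 7742 CPM in Mettl3 knockout, and 8156 and 9137 CPM in WT. By edgeR 1 of the 10 was called higher and 1, Trac, lower, with 5 above 0 and 5 below. For this and the lists that follow, the edgeR shares of all tested genes were 1.09% called higher and 1.51% lower. Trac, the T cell receptor α constant region, was at 1612 and 1601 CPM in Mettl3 knockout, and 2292 and 2510.1 CPM in WT (log2 fold change -0.58, SE 0.07, edgeR adjusted p = 0.0124). Trbc2 was at 1275 and 1295 CPM in Mettl3 knockout, and 1167 and 1181 CPM in WT, and the iNKT regulator Zbtb16 at 353 and 350.4 CPM in Mettl3 knockout, and 255 and 192 CPM in WT. Transcripts of cells that also present antigen differed between the genotypes. The 6 MHC class II genes summed to 2185 and 2309 CPM in Mettl3 knockout, and 140.2 and 268 CPM in WT (5 of 6 called higher). The 15 myeloid and dendritic cell markers summed to 486 and 542 CPM in Mettl3 knockout, and 85.0 and 116 CPM in WT (5 of 13 tested called higher, 1 lower). Itgam, too low to be tested, was at 0.27 and 0.16 CPM in Mettl3 knockout, and at 0 in both WT libraries. The 8 B cell markers summed to 134 and 141 CPM in Mettl3 knockout, and 136 and 175 CPM in WT (0 of 6 tested called by edgeR or DESeq2, 1 higher and 1 lower at an unadjusted p under 0.05), and Pax5 was at 0 in all 4 libraries. The 10 CD4+CD8+ thymocyte markers summed to 1402 and 1278 CPM in Mettl3 knockout, and 851 and 986 CPM in WT (0 of 10 called by edgeR, 6 higher with DESeq2, and 9 above 0). The 8 thymic epithelial markers summed to 33.2 and 25.4 CPM in Mettl3 knockout, and 52.6 and 57.4 CPM in WT (0 of 5 tested called by edgeR, 2 above 0 and 3 below; 1 higher and 1 lower with DESeq2). Their directions differed: Ly75 was at 20.01 and 14.9 CPM in Mettl3 knockout, and 39.6 and 40.0 CPM in WT, while Aire was at 1.87 and 1.60 CPM in Mettl3 knockout and at 0 in both WT libraries. Psmb11, the thymic cortical proteasome subunit, was at 0 in all 4 libraries, and Foxn1 and Krt5 were at 0 in both Mettl3 knockout libraries and in 1 WT library each. Erythroid markers summed to 6.68 and 8.99 CPM in Mettl3 knockout, and 3.17 and 0.955 CPM in WT. The 12 NKT1 markers summed to 2575 and 2516 CPM in Mettl3 knockout, and 4928 and 6271 CPM in WT (11 of 12 called lower). WT replicate 2 was the higher WT library in the NKT1 sum, as it was for H2-K1, H2-D1, B2m, Tapbp and Nlrc5. For the other members, Cd1d1, Tap1, Tap2, Psmb8 and Psmb9, WT replicate 1 was the higher. The part of these cell types in the results on B2m, Fcgrt, Ciita and Cd1d1 was not tested, and in bulk libraries fewer cells of a type and less RNA per cell cannot be told apart. The targeted gene Mettl3 was at 78.1 and 91.4 CPM in Mettl3 knockout, and 92.2 and 124 CPM in WT (log2 fold change -0.35, SE 0.19, edgeR adjusted p = 0.357); a count over the whole gene does not show whether the floxed part was lost.

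**Figure D5:**
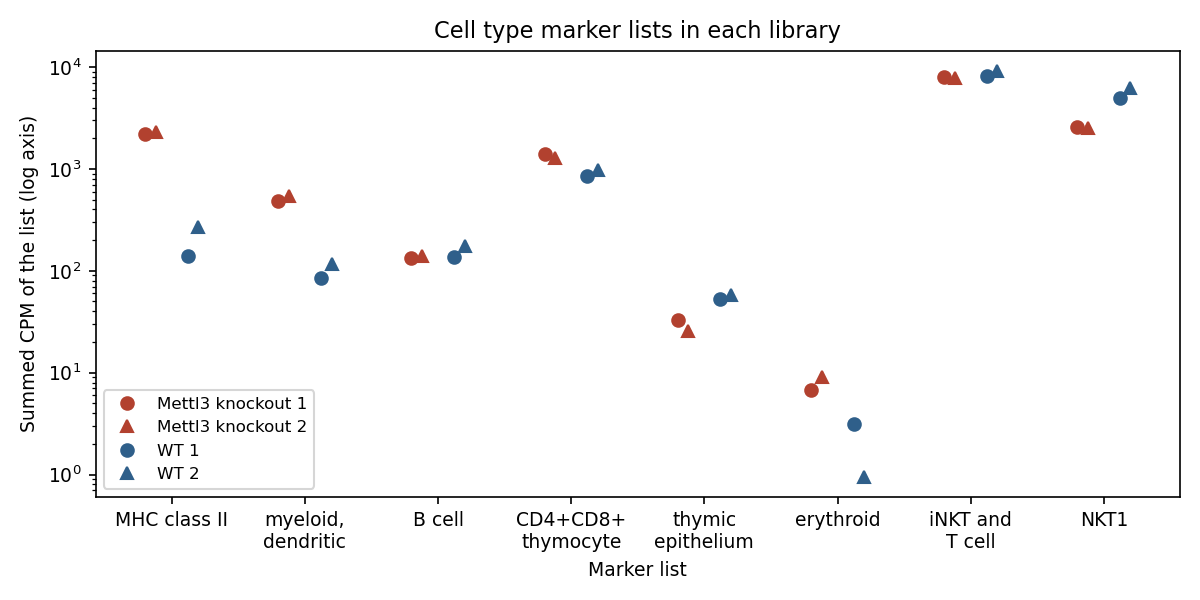
Summed CPM of 8 cell type marker lists in each library, on a log axis. MHC class II and myeloid or dendritic sums are higher, and the NKT1 sum lower, in both Mettl3 knockout libraries than in both WT libraries.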

How the data were processed

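RNA of sorted thymic iNKT cells was measured in 2 Mettl3 knockout and 2 WT libraries. The authors deposited 1 table of whole-number counts per gene, not normalized; STAR 2.6.0a, HTSeq 0.6.1, build mm10, FastQC 0.11.5 and DESeq2 1.18.1 are named in the submitters' processing notes. The sources used here give neither annotation nor strand setting, and per the labels' protocols the libraries were made by Smart-seq2, without molecular identifiers. Ensembl IDs were named from the GENCODE M21 annotation, which matched 53620 of 53715 rows. From the deposited counts, genes passing filterByExpr were scaled by TMM and tested two-sided with edgeR 4.0.16 (quasi-likelihood, R 4.3.3), with Benjamini-Hochberg adjustment over 14185 genes and a threshold of 0.05; SE is the log2 fold change over the square root of F. The fit was tested on simulated data. Alternatives used DESeq2 1.42.0, limma 3.58.1, other scalings and filters, a replicate block, leaving out each library, and 2 other length treatments. Members and lists were chosen with earlier results of these data known. Genes named beside the members and Mettl3 were fixed genes of the pathway, all of any list of 5 or fewer, called genes, up to 4 of each other list with the smallest p, and the most abundant markers. One gene that this rule names is not reported here.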

Additional observations from a re-analysis of the deposited data

How the results depend on the processing

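With 2 libraries per genotype, only differences well beyond the spread could pass, and the members' calls lie near the threshold. Of 227 recomputed gene values, 182 kept their direction and side of the threshold, 36 lost the call, 6 gained it and 3 turned. edgeR called 368 genes, 154 higher and 214 lower in the knockout. The count was 727 (335 higher, 392 lower) at 5 CPM or more in 2 libraries, 1341 (665 higher, 676 lower) with DESeq2 and 33 (7 higher, 26 lower) with the replicate block. The higher count was 93 with no filter and 101 with limma voom. With 1 library left out, 86 to 333 genes were called, 29 to 102 higher and 56 to 231 lower. Of the 10 members, 1 was called, B2m, lower. The number called was 0 with RLE size factors, no filter, the replicate block and the length trend removed, and 2 (1 higher, Tap2) with DESeq2 and at 5 CPM or more. With total-count scaling 1 was called higher (Tap2) and 0 lower. With 1 library left out, 0 to 1 were called, 0 to 1 of them lower. The log2 fold change of Tap1 ran from -0.057 (without Mettl3 knockout replicate 2) to 0.097 (without Mettl3 knockout replicate 1), and was -0.0019 with the length trend removed. That of H2-Q7 ran from -0.41 without WT replicate 1 to 0.24 without WT replicate 2. Same-numbered libraries did not deviate together (correlation -0.030 over 14185 genes), so the numbers were not taken to pair the libraries. Gene counts from the fit with the replicate block are given only here. That fit is nonetheless among the 12 alternatives behind the counts and ranges above. The cause of these changes was not tested.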
